A study of Mus musculus with 22 samples.

Results

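The 10 genes described here are immediate early genes, chosen by symbol as a set of transcripts that neuronal activity induces: Fos, Fosb, Junb, Egr1, Egr2, Egr4, Arc, Npas4, Nr4a1 and Ier2. All 10 were among the 55341 gene symbols of the count tables. They were followed animal by animal in a study of Fmr1 mutant and wild-type mice that sequenced ribosome-bound mRNA of striatal D1 neurons, the projection neurons that express the dopamine receptor Drd1. Fmr1 encodes FMRP, an RNA-binding protein found with translating ribosomes, and its mutation in mice models fragile X syndrome. In TRAP-seq, used here, a tagged ribosomal protein is made in a single cell type and ribosomes are pulled down through the tag with their mRNA.

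The mutant group (KO) held 5 animals, numbered 2, 3, 9, 10 and 11, and the wild-type group (WT) held 6, numbered 1, 4, 12, 13, 14 and 20. Animals of both genotypes carried Rpl10a fused to EGFP in medium spiny neurons that express Drd1. Each animal gave a pulldown library (IP) and a library of the lysate kept before the pulldown (input, called Total in the labels), so that 22 libraries made 4 groups. The labels call both assays D1 neurons, although the input is lysate of the whole striatum after nuclei were spun out. Age, strain, litter, cage and any treatment before dissection are not given in the sources used here. The p-values of KO over WT below measure the spread between these animals. Those that set IP against input come from a fit that does not pair an animal's libraries, or from a fit that compares them within each animal.

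Immediate early genes are switched on within minutes of strong synaptic input, without new protein synthesis, when calcium and kinase cascades activate transcription factors such as CREB and serum response factor already bound near their start sites. In D1 neurons dopamine acts through Drd1 to raise cyclic AMP and activate kinase cascades, and induced Fos, Egr1 and Arc are standard markers of that activation. The transcripts are short-lived, so their level in a tissue reflects the period shortly before it was taken.

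RefSeq promoter windows of GRCm38.p6, from 250 bases before to 50 after a start site, were matched for 7 members in 11 windows. The other 3 members are Egr1, Arc and Ier2. Windows of Fos, Npas4, Egr2 and Nr4a1 are printed here because these genes come from 4 different protein families and the level of each varied widely between animals, as described below. They lie at chr12:85473640-85473939 on the plus strand for Fos, chr19:4989922-4990221 on the minus strand for Npas4, chr10:67537619-67537918 on the plus strand for Egr2 and chr15:101266596-101266895 on the plus strand for Nr4a1. Capitals mark TGACG, the core of a CREB site, or its complement CGTCA, and GCGNGGGCG, the EGR site, or its complement. In Egr2 they also mark a CArG box, the sequence bound by serum response factor.
Fos: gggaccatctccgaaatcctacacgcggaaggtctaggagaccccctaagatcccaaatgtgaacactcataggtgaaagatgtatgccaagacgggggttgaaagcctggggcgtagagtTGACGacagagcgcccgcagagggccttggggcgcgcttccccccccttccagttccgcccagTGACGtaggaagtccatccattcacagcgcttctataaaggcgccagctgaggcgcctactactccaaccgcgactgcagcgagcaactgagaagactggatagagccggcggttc
Npas4: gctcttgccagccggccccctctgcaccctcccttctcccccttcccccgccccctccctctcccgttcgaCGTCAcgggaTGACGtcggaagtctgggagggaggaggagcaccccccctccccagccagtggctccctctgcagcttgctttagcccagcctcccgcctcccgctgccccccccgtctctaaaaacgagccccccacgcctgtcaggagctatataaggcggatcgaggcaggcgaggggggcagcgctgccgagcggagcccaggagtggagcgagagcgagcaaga
Egr2: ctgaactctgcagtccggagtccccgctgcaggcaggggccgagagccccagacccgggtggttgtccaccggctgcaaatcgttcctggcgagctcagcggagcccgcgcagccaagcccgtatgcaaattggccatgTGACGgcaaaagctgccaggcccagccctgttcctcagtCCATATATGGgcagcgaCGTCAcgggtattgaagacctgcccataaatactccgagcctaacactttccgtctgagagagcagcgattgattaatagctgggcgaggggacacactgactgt
Nr4a1: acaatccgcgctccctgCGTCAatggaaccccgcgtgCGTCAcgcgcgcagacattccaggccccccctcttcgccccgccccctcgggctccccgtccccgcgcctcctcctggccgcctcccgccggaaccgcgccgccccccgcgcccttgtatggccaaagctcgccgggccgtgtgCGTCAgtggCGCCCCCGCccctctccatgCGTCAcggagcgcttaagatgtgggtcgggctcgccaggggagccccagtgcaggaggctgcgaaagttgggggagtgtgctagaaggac

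TGACG, read on both strands, was found in at least 1 window of each of the 7 members, and 20.8% of the 32851 RefSeq windows hold it. Counted in bases from the start site, it began at -129 and -66 in Fos, at -179 and -169 in Npas4, and at -233, -213, -69 and -40 in Nr4a1. The printed window of Egr2 held it at -111 and -55, on either side of a CArG box at -72, a motif found in 1.63% of all windows. Of the 5 windows of Egr2, 4 held a CArG box and 3 held TGACG, but these 3 windows overlap and hold the same sites. Egr4 had 2 TGACG matches, while Fosb and Junb had 1 each. GCGNGGGCG, held by 5.55% of windows, was found once each in Fosb and Nr4a1. Neither the full palindrome TGACGTCA (1.79% of windows) nor the AP-1 sequence TGANTCA (7.81%) was found in a member's window. The first of these contains TGACG. These matches describe letters in a window and not binding.

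The IP libraries held 9375611 to 82376192 counts and the input libraries 25164548 to 43276230. Fmr1 averaged 9.99 ± 1.29 counts-per-million (CPM; SD, n = 5) in KO IP against 86.3 ± 12.4 (SD, n = 6) in WT IP, and 13.2 ± 1.6 in KO input against 63.7 ± 4.72 in WT input, and no KO library reached the level of a WT library. The summed CPM of 9 D1 markers was 2118 to 2692 in IP and 724 to 1241 in input, while that of the 5 D2 markers found in the files, which mark the other class of projection neuron, was 45.5 to 78.4 in IP and 494.4 to 1002 in input. KO animals 3 and 9 and WT animals 1 and 12 stood apart. The summed CPM of 8 cortical excitatory neuron markers, Slc17a7 among them, was 97.6 to 267.1 in their IP libraries and 162.7 to 654.4 in their input libraries, against at most 18.004 and at most 135.5 in the other 7 animals. Mitochondrial ribosomal RNA took 0.420% to 0.904% of counts in IP and 25.1% to 53.2% in input, with the highest share in KO animal 10. CPM values here are on a single scale set over all 22 libraries.

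The 10 genes are all protein-coding and lie on 8 chromosomes of GRCm38/mm10. Of the AP-1 subunits, Fos spans chr12:85473890-85477273, Fosb chr7:19302696-19310051 and Junb chr8:84974484-84978718. The zinc-finger genes Egr1, Egr2 and Egr4 lie on chr18:34859823-34864984, chr10:67535475-67542188 and chr6:85511121-85513589. Npas4 lies on chr19:4984355-4990316 and Nr4a1 on chr15:101254269-101274795. Arc lies on chr15:74669083-74672570 and Ier2 on chr8:84661331-84662852. They are compact genes, with spans of 1522 to 20527 bases against a median of 26969 bases over the 12489 protein-coding genes tested in IP. The libraries do not mark strand, and 7.52% of the exon bases of Junb overlap the gene Prdx2, so the gene of origin of reads there cannot be told. The other members overlap no annotated exon of another gene.

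Egr1 was the most abundant member by far. Per kilobase of exon, so that genes can be compared with each other, its level was 252.8 ± 72.6 CPM (SD, n = 5) in KO IP and 238.1 ± 64.1 (SD, n = 6) in WT IP, and 127.4 ± 34.7 in KO input and 130.4 ± 36.9 in WT input. Nr4a1 and Arc followed, with means of 40.3 and 29.3 CPM per kilobase in KO IP and 35.4 and 21.6 in WT IP. In input Arc stood above Nr4a1, at 25.8 against 21.1 in KO and 21.1 against 20.7 in WT. The mean ± SD ranges of this pair overlapped in all 4 groups, as did those of the next pair, Junb and Egr4. Egr2 and then Fos came after them, with 13.8 and 7.23 CPM per kilobase in KO IP and 12.2 and 4.51 in WT IP. Npas4 and Fosb lay below Fos and changed places with each other between groups. Ier2 was last in each group, at 0.163 CPM per kilobase in KO IP, 0.143 in WT IP, 0.431 in KO input and 0.486 in WT input.

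**Figure D1:**
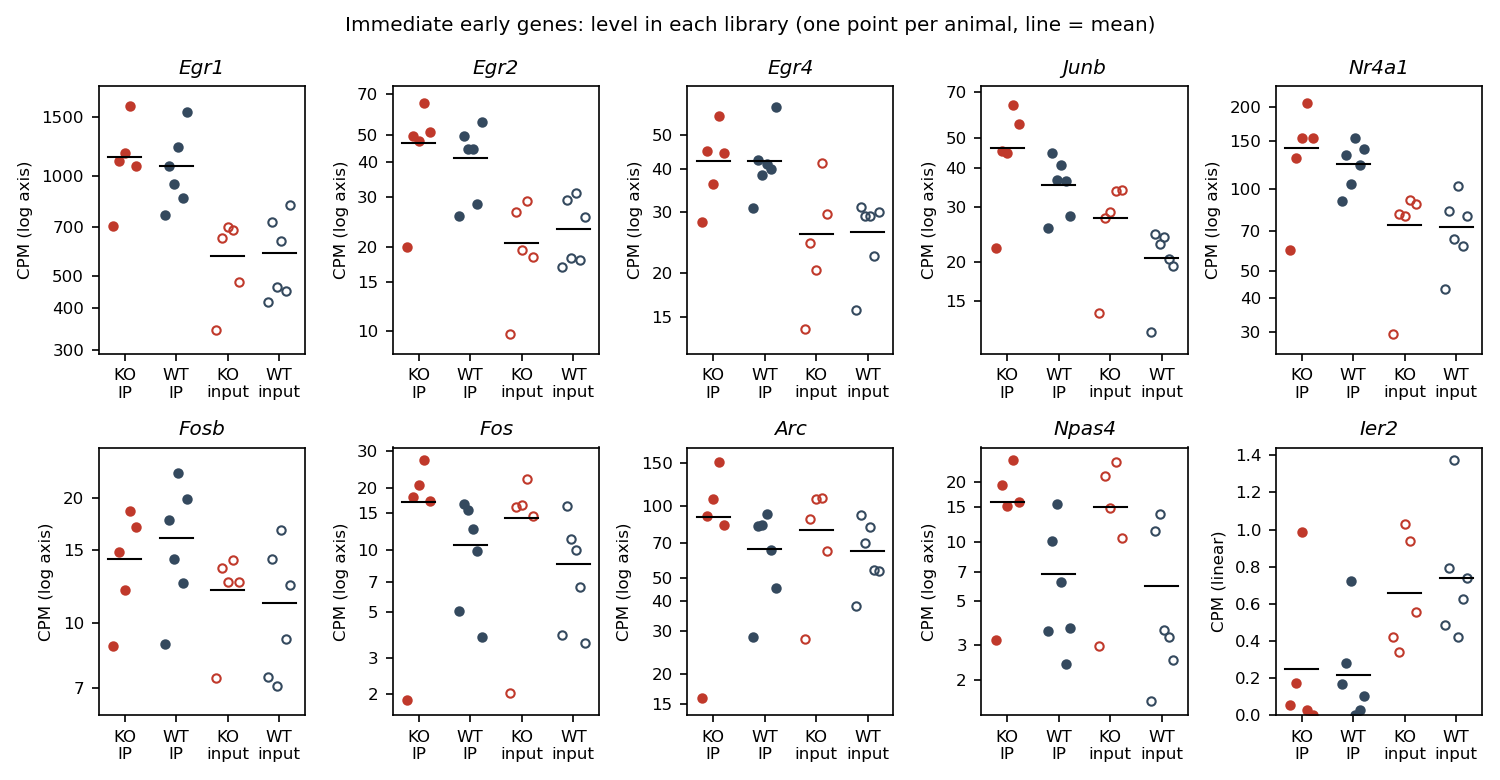
Level of each of the 10 genes in CPM (log axes, linear for Ier2) in KO IP, WT IP, KO input and WT input, with 1 point per animal and a line at the group mean. KO and WT points overlap in every panel, and for Egr1, Egr2, Egr4, Junb and Nr4a1 the IP means lie above the input means.

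KO was set against WT in each assay to ask whether the mutation changed the level of these transcripts on D1 ribosomes or in the striatum. No member passed the test in either assay. Npas4 had the highest KO over WT estimate in both, 1.30 on the log2 scale in input and 1.24 in IP, against an SD between animals of the same genotype of 1.22 in input and 1.08 in IP. In IP 0 of the 9 members tested were called by edgeR's quasi-likelihood test at a Benjamini-Hochberg adjusted p under 0.05 over all genes, where 0.0553% of the 14456 genes tested were called, all lower in KO. In input 0 of 10 were called, where 0.0183% of 16429 were, again all lower. The members' median log2 fold change was 0.19 in IP and 0.06 in input, and the median over all genes 0.00 in both. These medians moved with single animals, to 0.021 in IP and -0.0098 in input without KO animal 10, and to 0.39 in IP and 0.23 in input without KO animal 2. DESeq2 called 0 members in either assay, and in edgeR no member had an unadjusted p under 0.05. The animals of both genotypes overlapped for each member, and over all genes tested 0.865% in IP and 0.639% in input had groups that did not overlap. The cortical markers were not called either, but 8 of 8 had a positive KO over WT estimate in IP (median log2 fold change 0.42) and 7 of 7 in input (0.54). In the 7 animals left without animals 1, 3, 9 and 12, 0 members were called. There 6 of 9 members were positive in IP with a median of 0.033, and 3 of 10 in input with a median of -0.058. In animals 1, 3, 9 and 12 alone 0 were called, 10 of 10 were positive in IP with a median of 0.53, and 8 of 10 in input with a median of 0.65.

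Fos, Fosb and Junb encode subunits of AP-1, in which a Fos-family protein pairs with a Jun-family protein. Fos had 1.87, 18.1, 20.6, 27.2 and 17.2 CPM in the IP of KO animals 2, 3, 9, 10 and 11, against 3.78 to 16.6 CPM (median 11.3) in WT IP. KO animal 2 lay below all WT animals and the other 4 KO animals above all of them. Input held 2.02, 16.0, 16.5, 21.98 and 14.6 CPM of Fos in KO animals 2, 3, 9, 10 and 11 against 3.53 to 16.3 (median 8.30) in WT input. There KO animal 2 was again lowest of all, and animal 10 highest. Animals 9 and 10 lay above all WT animals in input, and animals 3 and 11 inside the WT range. The log2 fold change, KO over WT, was 0.69 ± 0.61 (SE, 95% interval -0.67 to 2.06, edgeR adjusted p = 0.869) in IP and 0.72 ± 0.57 (adjusted p = 0.881) in input.

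Junb had 22.2, 45.4, 44.8, 63.7 and 55.2 CPM in the IP of KO animals 2, 3, 9, 10 and 11, against 25.6 to 44.7 CPM (median 36.5) in WT IP. As for Fos, 4 of the 5 KO animals lay above the WT range, though animals 3 and 9 did so by less than 1 CPM. Its log2 fold change was 0.39 ± 0.23 (SE, edgeR adjusted p = 0.765) in IP and 0.42 ± 0.21 (adjusted p = 0.768) in input. Input held 13.7 to 34.0 CPM of Junb in KO and 11.95 to 24.6 (median 21.6) in WT, again with all KO animals but animal 2 on top. Fosb, whose splice form deltaFosB accumulates in striatal neurons under repeated stimulation, had 8.83, 14.9, 12.1, 18.6 and 17.05 CPM in KO IP in the same animal order, against 8.95 to 23.0 (median 16.0) in WT IP. For Fosb the highest of all were WT animals 13 and 20. Its log2 fold change was -0.17 ± 0.23 in IP and 0.10 ± 0.23 in input, and the counts per gene do not separate its splice forms.

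Egr1, Egr2 and Egr4 encode zinc-finger transcription factors of a single family. Egr1, a widely used marker of neuronal activity, had 704, 1106, 1171, 1616 and 1071 CPM in the IP of KO animals 2, 3, 9, 10 and 11, against 763 to 1556 CPM (median 1005) in WT IP. The KO values spread on both sides of the WT median, and WT animal 20 was second only to KO animal 10. Egr2 had 19.98, 49.6, 47.5, 65.2 and 51.4 CPM in KO IP, in the same animal order, against 25.7 to 55.6 (median 44.8) in WT IP. Egr4 had 28.2, 45.0, 36.2, 56.7 and 44.4 CPM in KO IP against 30.9 to 60.3 (median 40.7) in WT IP. For both, KO animal 2 was the lowest of all 11. The log2 fold changes in IP were 0.09 ± 0.23 for Egr1, 0.18 ± 0.30 for Egr2 and -0.00 ± 0.17 for Egr4 (SE), with intervals that reached at most 0.83 in size. In input they were -0.04 ± 0.23, -0.17 ± 0.25 and -0.03 ± 0.25 for the same genes.

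Npas4 encodes a neuron-specific basic helix-loop-helix factor that calcium entry induces and that regulates inhibitory synapses. It had 3.19, 19.4, 15.1, 25.9 and 15.9 CPM in the IP of KO animals 2, 3, 9, 10 and 11, against 2.41 to 15.5 CPM (median 4.97) in WT IP. In the KO input of the same animals it had 2.96, 21.4, 14.8, 25.2 and 10.4 CPM, against 1.57 to 13.7 (median 3.43) in WT input. In both assays KO animal 2 sat among the low WT animals. WT animal 12 lay within the range of the other 4 KO animals in both, and WT animal 4 in input. The log2 fold change was 1.24 ± 0.60 (SE, 95% interval -0.10 to 2.58, edgeR adjusted p = 0.693) in IP and 1.30 ± 0.69 (interval -0.24 to 2.84, adjusted p = 0.779) in input. Leaving out single animals moved it between 0.98 and 1.64 in IP and between 1.04 and 1.74 in input. In animals 1, 3, 9 and 12 alone, which had high cortical markers, it was 0.92 in IP and 1.23 in input, and in the other 7 alone 1.43 in IP and 1.30 in input. The authors' deposited DESeq2 values run WT over KO and come both unshrunken and shrunken towards 0. For Npas4 in IP they give -1.20 unshrunken and -0.19 ± 0.09 (SE) shrunken, with a DESeq2 adjusted p of 0.468 and an unadjusted p of 0.0457. In input they give -1.32 unshrunken and -0.20 ± 0.11 shrunken, with a DESeq2 adjusted p of 0.670 and an unadjusted p of 0.0522.

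Nr4a1, an orphan nuclear receptor, had 59.7, 130.7, 154.1, 208.2 and 153.6 CPM in the IP of KO animals 2, 3, 9, 10 and 11, against 90.4 to 153.9 CPM (median 128.2) in WT IP. KO animals 2 and 10 were the lowest and highest of all 11, while animals 3 and 11 lay inside the WT range and animal 9 at its upper end. Its log2 fold change was 0.19 ± 0.27 (SE) in IP and 0.02 ± 0.30 in input. Arc differs from the other members in its role, since it encodes a postsynaptic protein that promotes the removal of AMPA receptors, and its mRNA travels into dendrites. It had 15.8, 90.2, 106.9, 151.7 and 82.8 CPM in KO IP, in the same animal order, against 28.4 to 92.6 (median 73.6) in WT IP. The KO animals again took both ends of the range. Its log2 fold change was 0.44 ± 0.51 in IP and 0.28 ± 0.35 in input. The IP value was 0.16 without KO animal 10. For Arc and Nr4a1 in input, the 7 animals without high cortical markers gave -0.08 and -0.24.

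Ier2, which encodes a short nuclear protein, was close to the detection limit. The KO IP libraries held 3, 4, 27, 1 and 0 reads in animals 2, 3, 9, 10 and 11, and the WT IP libraries 0 to 16. It did not pass the filter on low counts in IP and was not tested there. Input held 10 to 26 reads in KO and 11 to 44 in WT, or 0.340 to 1.03 CPM against 0.422 to 1.37 CPM. The log2 fold change in input was -0.20 ± 0.51 (SE, edgeR adjusted p = 0.967).

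**Figure D2:**
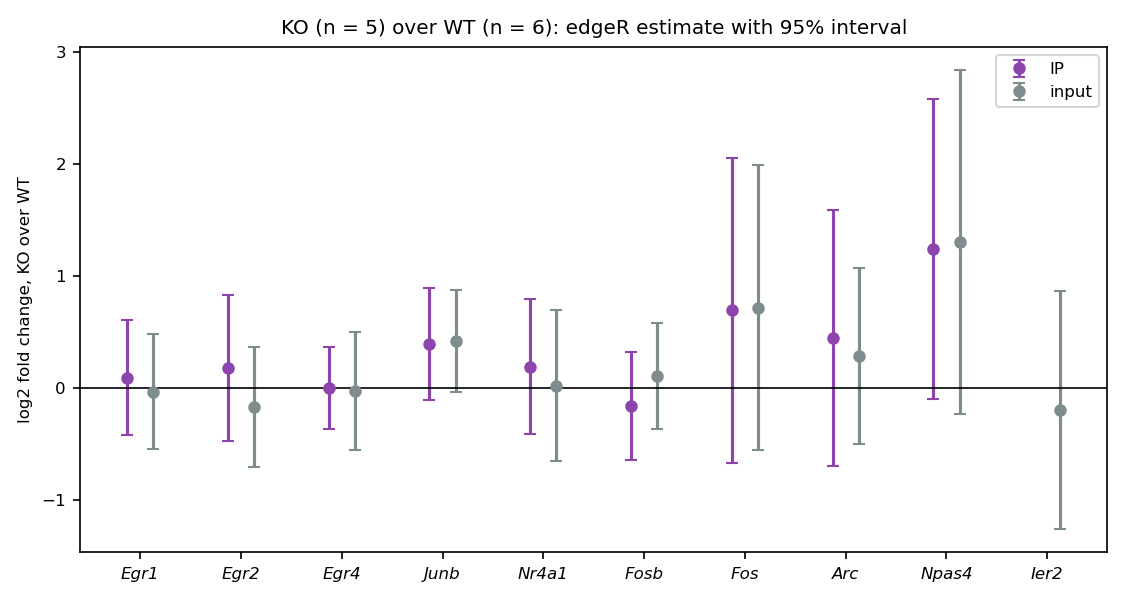
Log2 fold change of KO (n = 5) over WT (n = 6) for each gene in IP and input, as edgeR estimates with 95% intervals; Ier2 was not tested in IP. All intervals include 0, and those of Npas4, Fos and Arc are the widest among the genes tested in both assays.

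The members varied widely between animals. Across the 11 IP libraries Fos ranged 14.1-fold, Npas4 10.5-fold and Arc 9.56-fold, while Nr4a1, Egr2, Junb, Fosb, Egr1 and Egr4 ranged 3.48-fold to 2.14-fold. In input Npas4 ranged 15.4-fold, Fos 10.6-fold and Arc 3.82-fold. A measure of this free of genotype is the SD of log2 CPM between animals of the same genotype. In IP it was 1.22 for Fos, 1.08 for Npas4 and 0.97 for Arc, where the median over all genes tested was 0.29, and in input it was 1.13, 1.22 and 0.64, against a median of 0.30. Egr4 had the smallest SD of the 9 in IP, at 0.34. By genotype the SD in IP was 1.54 in KO and 0.88 in WT for Fos, 1.26 in KO and 0.65 in WT for Arc, and 1.17 in KO and 1.00 in WT for Npas4. KO animal 2 carried much of the pooled value. Without it the SD in IP was 0.72 for Fos, 0.57 for Arc and 0.82 for Npas4, and in input 0.71, 0.42 and 1.02 for the same genes. In IP the SD of Junb was 0.29 and that of Nr4a1 0.28 without it, against 0.45 and 0.50 with it.

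Spread depends on level, so each member was placed among genes whose mean CPM was within 2-fold of its own. In IP, Arc had a higher SD than 99.9% of 3049 such genes, Nr4a1 than 99.6%, Egr1 than 99.5%, Fos and Egr2 than 99.2%, Npas4 than 98.9%, Junb than 98.5%, Egr4 than 95.6% and Fosb than 94.6%. Without KO animal 2, Fos lay at the 98.5th percentile in IP, Arc at the 99.7th, Npas4 at the 98.3rd and Junb, the lowest of the 9, at the 90.0th. In input with all animals the same genes lay between the 89.8th percentile, for Fosb, and the 99.6th, for Arc. Ier2, at 0.592 in input, lay at the 17.8th percentile of genes of its low level. The SD of Ier2 there was below that of the median gene of its level, 0.903.

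**Figure D3:**
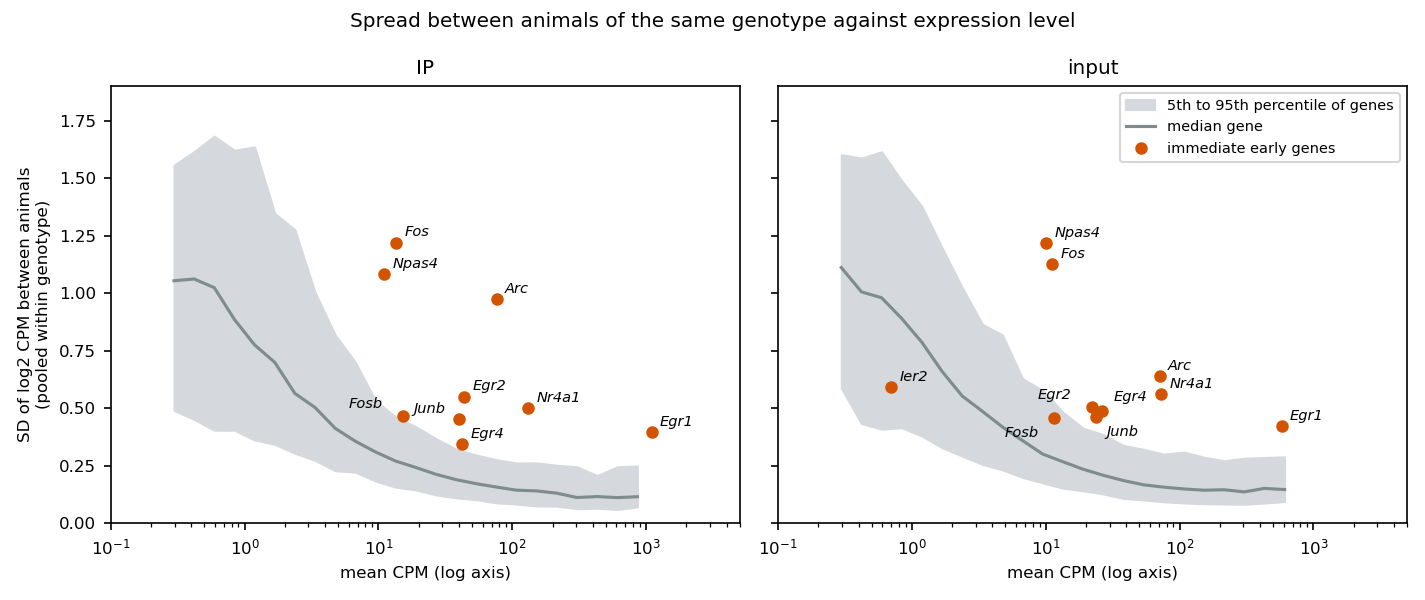
SD of log2 CPM between animals, pooled within genotype, against mean CPM (log axis) in IP and input, with the median and the range from the 5th to the 95th percentile of genes of like level in grey. In IP, Fos, Npas4 and Arc stand highest, at 1.22, 1.08 and 0.97, and in input Ier2 is the member that lies below the median line.

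In most animals the members were high or low together. KO animal 10 was among the 4 highest animals for 9 of 9 members, Ier2 left aside, in both IP and input. KO animal 2 and WT animal 1 were among the 4 lowest for 9 of 9 in both assays, and WT animal 14 was below the mean of the 11 animals for 9 of 9. In IP, KO animals 3 and 11 and WT animal 4 were above the mean for all 9. The low end thus held both genotypes. Animal 10 also had the highest share of mitochondrial ribosomal RNA in input, 53.2%, and its part in the levels was not tested.

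WT animals 12 and 20 were mixed. Animal 12 was above the mean for 4 of 9 members in IP, most of all for Npas4 at 15.5 CPM, and for 5 of 9 in input. Animal 20 was above the mean for 5 of 9 members in IP, with 60.3 CPM of Egr4, the highest of all animals, and 1556 CPM of Egr1. Its Fos, at 3.78 CPM in IP, was the second lowest of all, and its Npas4 was 3.68 CPM. In input its Egr1 was the highest of all, at 817 CPM, beside 3.53 CPM of Fos. In animal 20, then, the EGR genes, Nr4a1 and Fosb were above the mean and Fos, Npas4, Arc and Junb below it. Npas4 in input fell into separate levels, with animals 10, 3, 9, 12, 4 and 11 at 10.4 CPM or more and animals 13, 14, 2, 20 and 1 at 3.57 CPM or less.

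**Figure D4:**
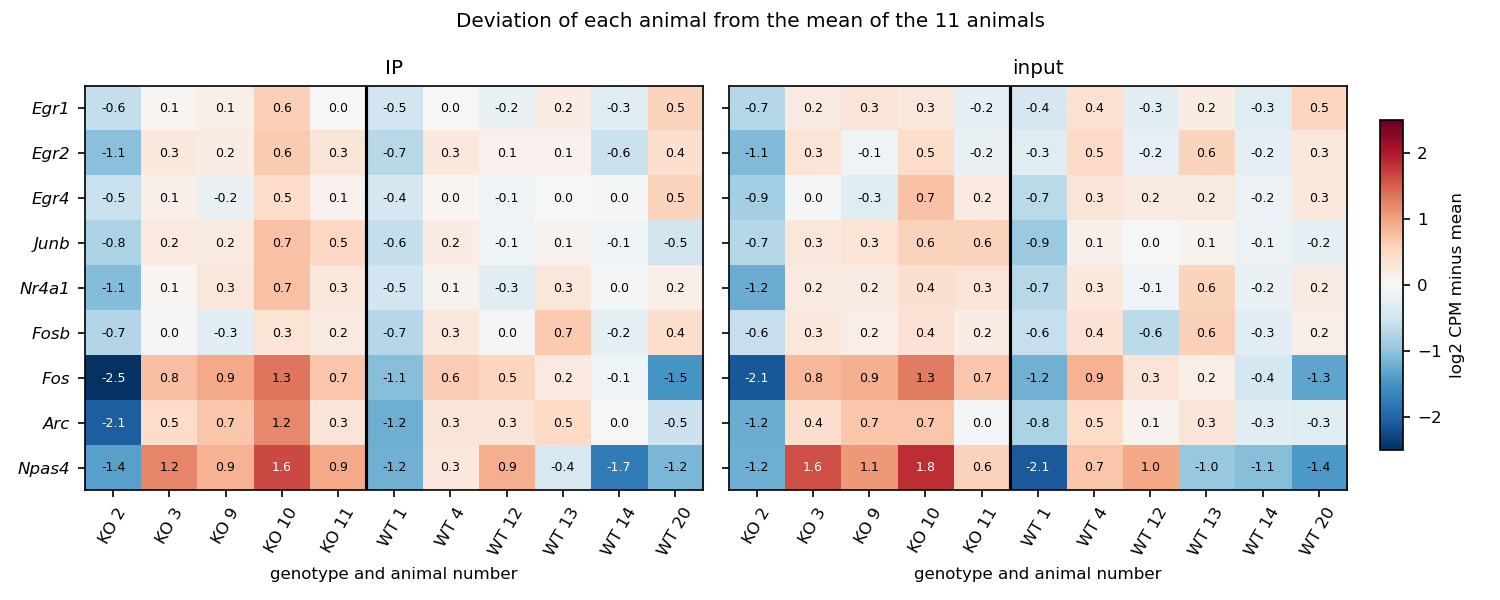
Log2 CPM of each animal minus the mean of the 11 animals for 9 genes in IP and input (Ier2 left out for its low counts), KO animals left of the line. The columns of animals 2 and 1 are below the mean throughout and that of animal 10 above it, and WT animal 20 is high for Egr1, Egr2, Egr4, Fosb and Nr4a1 and low for Junb, Fos, Arc and Npas4.

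Correlations across the 11 libraries of an assay describe how closely the members followed each other. They carry the shared depth, genotype and lysate of each animal and are given with no test. Against the mean standardised log2 CPM of the other members, Pearson's r in IP was highest for Egr2 (0.95), Nr4a1 (0.93) and Arc (0.92) and lowest for Npas4 (0.70). In input Arc had 0.95, Npas4 0.70 and Ier2 0.31. Among 9440 other genes in IP with at least 5 CPM, the one most like the members' mean was Dusp1, which encodes a phosphatase of MAP kinases and is itself rapidly induced, with r = 0.93 and Spearman's rho = 0.91 over 11 libraries. It also came first among 10365 genes in input (r = 0.96, rho = 0.97), where Arl4d, another rapidly induced gene, was also among the first 8 (r = 0.91, rho = 0.92). The next 7 in IP were Rad21, Pkd2, Dhrs3, Hspa8, Gprasp1, Stt3b and Itgav, with r from 0.93 to 0.89. In input Zfp101, Larp1b, Lrrn3, Aldh2, Igf1r and Acsl3 completed the first 8, with r from 0.93 to 0.87.

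Both libraries of an animal came from the same lysate, and IP was set against input to ask which members the D1 pulldown held at a higher relative level than the striatum as a whole. Junb, Egr1, Egr2, Egr4 and Nr4a1 were higher in IP in both genotypes. Fos, Fosb, Arc and Npas4 were not called in either, and Ier2 was lower in IP in each animal without being called. In KO 5 of 10 members were called, all higher, where 47.3% of the 17311 genes tested were called, 20.9% higher and 26.4% lower. In WT 5 of 10 were called, all higher, where 49.6% of genes were, 21.8% higher and 27.8% lower. The called members were the same 5. The members' median log2 fold change, IP over input, was 0.48 in KO and 0.60 in WT, against -0.11 over all genes in both. These values are relative levels after the libraries were scaled with TMM, and not plain shares of each library. The scaling factors were 1.10 to 1.20 in IP and 0.60 to 0.99 in input. In input fewer cells of a type and less RNA per cell cannot be told apart.

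Egr1 was 1.03, 0.77, 0.74, 1.24 and 1.16 higher on the log2 scale in IP than in input of KO animals 2, 3, 9, 10 and 11, and 0.56 to 1.03 higher (median 0.93) in WT animals. Egr2 was 1.03, 0.90, 1.28, 1.17 and 1.48 higher in the KO animals in the same order and 0.53 to 1.30 (median 0.71) in WT. Both were higher in IP in each of the 11 animals, and so were Junb, Egr4 and Nr4a1, with per-animal values from 0.39 to 1.19. Over all genes tested, 22.9% were higher in IP in all 5 KO animals and 21.8% in all 6 WT animals. The fitted log2 fold changes, IP over input, were 0.99 ± 0.25 (SE, edgeR adjusted p = 0.00318) in KO and 0.87 ± 0.23 (0.00393) in WT for Egr1. For Egr2 they were 1.18 ± 0.31 (0.00337) in KO and 0.84 ± 0.28 (0.0171) in WT. Junb had 0.75 ± 0.25 in KO and 0.78 ± 0.23 in WT, Nr4a1 0.93 ± 0.31 in KO and 0.77 ± 0.28 in WT, and Egr4 0.70 ± 0.24 in KO and 0.68 ± 0.22 in WT. Leaving out single animals ended some calls of this fit, which does not pair the libraries, at similar fold changes. In KO Junb had 0.68 and Nr4a1 0.84 without animal 10 (edgeR adjusted p = 0.0528 and 0.0560), and Egr4 0.66 without animal 3 (0.0717) and 0.68 without animal 9 (0.0567). In WT Egr2 had 0.75 without animal 12 (edgeR adjusted p = 0.0600) and 0.77 without animal 20 (0.0550), and Nr4a1 0.73 to 0.79 without animal 4, 12, 14 or 20 (0.0539 to 0.0766).

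Arc showed no such difference, with -0.82, 0.03, 0.00, 0.50 and 0.35 in KO animals 2, 3, 9, 10 and 11 and -0.43 to 0.27 (median 0.02) in WT animals. It was higher in IP in 4 of 5 KO and 3 of 6 WT animals. Fos was higher in IP in 4 of 5 KO and 6 of 6 WT animals, by at most 0.57, and Npas4 in 4 of 5 and 4 of 6. These are the genes with the widest spread between animals, which the fit over 4 groups counts as error. With the animal as a block, which compares the libraries of the same lysate, the 5 genes kept their calls with SE of 0.07 to 0.12, for example 0.99 ± 0.07 (edgeR adjusted p = 1.15e-09) for Egr1 in KO and 0.88 ± 0.07 in WT. In that fit edgeR also called Fos (0.32 ± 0.12, adjusted p = 0.0364) and Fosb (0.53 ± 0.13, adjusted p = 0.00150) higher in WT. In KO they had 0.20 ± 0.13 (edgeR adjusted p = 0.239) and 0.23 ± 0.14 (0.171) and were not called. The blocked fit called 5 members higher in KO and 7 in WT. It called Ier2 lower in both, and the way Ier2 passed the filter is given below. It called 51.4% of all genes in KO, 23% higher and 28.5% lower, and 53.8% in WT, 24.1% higher and 29.7% lower. Arc stayed near 0, at 0.02 ± 0.15 (95% interval -0.29 to 0.34) in KO and -0.02 ± 0.13 (-0.30 to 0.27) in WT, and Npas4, at 0.13 ± 0.19 in KO and 0.33 ± 0.18 in WT, was not called.

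**Figure D5:**
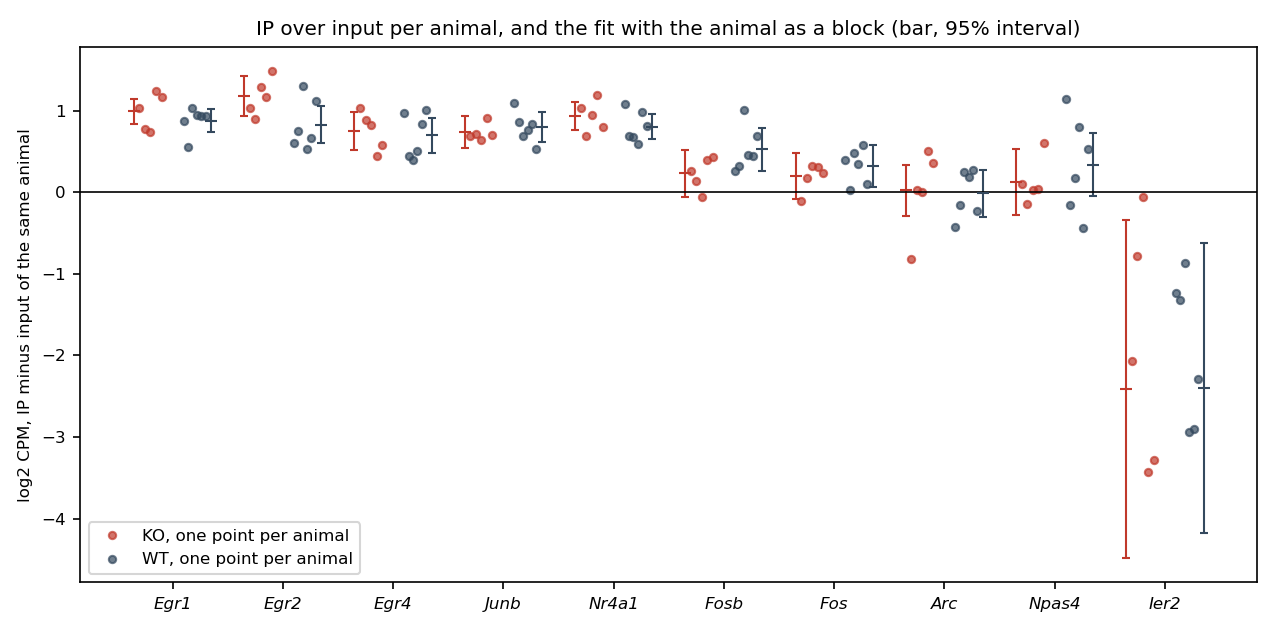
Log2 CPM of IP minus input of the same animal for each gene, KO left of WT, with 1 point per animal and, beside the points, the estimate and 95% interval of the fit with the animal as a block. Egr1, Egr2, Egr4, Junb and Nr4a1 lie above 0 in all 11 animals, Arc and Npas4 scatter around 0 and Ier2 lies below it.

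Ier2 was lower in IP than in input in each of the 5 KO and 6 WT animals, where 29.2% and 26.5% of all genes were. Its log2 fold change was -1.38 ± 0.93 (SE, edgeR adjusted p = 0.236) in KO and -1.94 ± 0.88 (0.0707) in WT, and with the animal as a block -2.41 ± 0.99 (0.0480) in KO and -2.40 ± 0.85 (0.0222) in WT. Without animal 9, whose IP held 27 reads, the fit with no block gave -3.06 (adjusted p = 0.0187) in KO. Ier2 passed the filter of this fit through the input libraries alone, so that a lower value in IP was built into its being tested.

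These counts were taken again without animals 1, 3, 9 and 12, which had high cortical markers. The blocked edgeR fit still called the 5 members higher in both genotypes, and Fosb in WT (0.48, adjusted p = 0.00977). It also called Ier2 lower in both. Of 17541 genes it called 3598 higher and 4171 lower in KO, and 3844 higher and 4590 lower in WT. Fos in WT was no longer called (0.26, edgeR adjusted p = 0.209). The fit without the block, left with 3 KO and 4 WT animals, called Egr1 (1.17) and Egr2 (1.27) higher in KO and Egr1 (0.84) in WT, and Ier2 lower in both. Of 17541 genes this fit called 3238 higher and 4060 lower in KO, and 3521 higher and 4420 lower in WT. Junb, Egr4 and Nr4a1 then had 0.79, 0.61 and 1.02 in KO and 0.76, 0.71 and 0.75 in WT and were not called, nor was Egr2 in WT (0.78). The cortical marker sum was higher in input than in IP in each of the 11 animals, and its part in the IP over input values was not tested. In the fit of all 11 animals glial markers were lower in IP, with all 6 astrocyte, 6 oligodendrocyte and 6 microglia markers called lower in both genotypes. The microglia markers C1qa and Tmem119 passed the filter through the input libraries alone, so that a lower value in IP was built into their being tested. All 9 D1 markers were called higher, with median log2 fold changes of 1.62 in KO and 1.30 in WT, and each of the 5 members lay below these medians. The D1 marker with the lowest value, Sfxn1, had 0.83 in KO and 0.63 in WT. Egr1, Egr2 and Nr4a1 lay above it in KO, and all 5 members in WT.

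The interaction of genotype and assay asked whether IP over input differed between KO and WT. No member was called, and 0 of 17311 genes were, with 710 genes at an unadjusted p under 0.05 and 5 called by DESeq2, none of them a member. Egr2 had the largest difference among the 9 members other than Ier2, 0.34 ± 0.41 (SE) higher in KO, and with the animal as a block it was 0.35 ± 0.16 at an unadjusted p of 0.0398 and an edgeR adjusted p of 1. With the block, Fos and Fosb had -0.12 ± 0.18 and -0.30 ± 0.19 (edgeR adjusted p = 1 for both). That they were called in WT and not in KO with the block is therefore not shown to be a difference between the genotypes.

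Other genes of the pathway were read from 3 lists. Of 48 further immediate early and rapid response genes, 43 were tested in IP and 45 in input, and 0 differed by genotype in either assay by edgeR or DESeq2, with 5 at an unadjusted p under 0.05 in IP and 3 in input by edgeR, where 7.62% and 6.84% of all genes were. The lowest p-values in IP were those of Dusp6, a phosphatase of MAP kinases (log2 fold change, KO over WT, 0.38 ± 0.13 SE, edgeR adjusted p = 0.517), and Coq10b (0.37 ± 0.13). In input they were those of Egr3, the remaining member of the EGR family (-0.44 ± 0.16, edgeR adjusted p = 0.605), and Homer1, a postsynaptic scaffold (-0.27 ± 0.12). In IP over input, 12 of 45 of these genes were higher and 7 lower in KO, where 20.9% and 26.4% of all genes were, and 10 higher and 6 lower in WT, where 21.8% and 27.8% were, so the share called higher in WT was near that of all genes. Klf2, among the lower ones in both, passed the filter through the input libraries alone, so that a lower value in IP was built into its being tested. With the animal as a block 16 of the 45 were higher and 7 lower in KO, where 23% and 28.5% of all genes were. In WT 16 were higher and 6 lower, where 24.1% and 29.7% of all genes were. The median log2 fold changes were 0.12 in KO and 0.27 in WT without the block. Egr3 was 1.06 ± 0.17 higher in KO IP, and with the animal as a block 1.06 ± 0.07 in KO and 0.80 ± 0.06 in WT. Nr4a3, a relative of Nr4a1, was 0.97 ± 0.09 higher in KO and 0.98 ± 0.08 in WT in the blocked fit. Plk2, a kinase of activity-dependent synaptic scaling, was 0.93 ± 0.09 higher in KO and 0.90 ± 0.08 in WT. Jun, an AP-1 partner of Fos, was lower in IP, at -1.09 ± 0.26 in KO and -1.38 ± 0.24 in WT. Fbxo33 (0.57 ± 0.10 in KO and 0.52 ± 0.09 in WT), Coq10b in KO (0.63 ± 0.14) and the clock gene Per1 in WT (0.75 ± 0.14) were also higher in IP.

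Delayed activity genes, which the early factors help to induce, were read in the same way. Of 15 tested in each comparison, 0 differed by genotype by edgeR or DESeq2. By edgeR 2 had an unadjusted p under 0.05 in each assay, where 7.62% of all genes in IP and 6.84% in input did. Baz1a, a chromatin remodeler subunit, had -0.57 ± 0.19 (SE, edgeR adjusted p = 0.452) in IP and -0.64 ± 0.27 in input, Vgf, a secreted neuropeptide precursor, had -0.40 ± 0.15 in IP, and Scg2, secretogranin 2, had -0.44 ± 0.13 in input. In IP over input 5 were higher and 0 lower in KO, and 6 higher and 0 lower in WT, with medians of 0.40 in KO and 0.42 in WT. Of all genes 20.9% were higher and 26.4% lower in KO, and 21.8% higher and 27.8% lower in WT. With the animal as a block 7 of the 15 were higher and 2 lower in KO, where 23% and 28.5% of all genes were. In WT 9 were higher and 3 lower, where 24.1% and 29.7% of all genes were. Cartpt, a neuropeptide precursor, was among the lower ones in both (-1.67 ± 0.51 in KO and -1.39 ± 0.43 in WT, edgeR adjusted p = 0.00905 and 0.0104), and so was Nrn1 (-1.27 ± 0.42 in KO and -1.42 ± 0.40 in WT). Acvr1c, an activin receptor, was higher by 0.91 ± 0.10 in KO and 0.80 ± 0.10 in WT, and Tpbg by 1.04 ± 0.15 in KO and 0.87 ± 0.13 in WT. Scg2 was higher by 0.97 ± 0.19 in KO and 0.96 ± 0.18 in WT, and Spry2, an inhibitor of growth factor signalling, by 0.52 ± 0.12 in KO and 0.42 ± 0.11 in WT. Across the genotypes the values of this list shifted when the 4 animals with high cortical markers were left out. Fewer animals and fewer genes were then compared, and the cause of the shift was not tested. With all 11 animals 6 of 15 genes were positive in IP, KO over WT, with a median log2 fold change of -0.07. Without the 4 animals 1 of 13 was, with a median of -0.51. In input the counts were 5 of 15 with all animals (median -0.16) and 1 of 14 without the 4 (median -0.36). None was called by edgeR without them either, with 6 at an unadjusted p under 0.05 in IP and 3 in input, where 7.92% and 10.8% of all genes were.

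The upstream regulators, kinases and transcription factors that carry the signal to these promoters, held mostly genes that were higher in IP. Of 29 tested, 0 differed by genotype in either assay by edgeR or DESeq2. By edgeR 1 had an unadjusted p under 0.05 in each, where 7.62% of all genes in IP and 6.84% in input did. Elk4, a partner of serum response factor, had -0.27 ± 0.12 (SE, edgeR adjusted p = 0.616) in IP, KO over WT. In input the kinases Rps6ka1 and Rps6ka2 had 0.50 ± 0.24 and 0.26 ± 0.15. In IP over input 16 of 29 were higher and 5 lower in KO, and 18 higher and 7 lower in WT, with medians of 0.44 in KO and 0.46 in WT, against -0.11 over all genes in both. Of all genes 20.9% were higher and 26.4% lower in KO, and 21.8% higher and 27.8% lower in WT. Mef2a, an activity-regulated transcription factor, was higher by 0.97 ± 0.06 in KO and 0.89 ± 0.06 in WT, and Map2k1, a kinase of the MAP kinase cascade, by 0.95 ± 0.07 in KO and 0.79 ± 0.06 in WT. Camk4, a calcium-dependent kinase that acts on CREB, was higher by 1.17 ± 0.10 in KO and 1.18 ± 0.09 in WT. The interaction of genotype and assay called 0 genes of the 3 lists in edgeR and DESeq2, with 2 at an unadjusted p under 0.05 in edgeR, where 4.1% of all genes were.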

How the data were processed

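RNA was sequenced from the anti-EGFP pulldown and from the input lysate of 11 mice, paired-end and without strand, with all pulldowns and sequencing in a single batch, per the labels' protocols. The authors deposited whole-number read counts per gene symbol. STAR, featureCounts, DESeq2 and the mm10 build are named in the submitters' processing notes, with versions not given in the sources used here. The authors also deposited tables of log2 fold changes and p-values of wild type over mutant, which are quoted only where they are named.

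From the counts, 3 quasi-likelihood fits were made with edgeR 4.0.16 in R 4.3.3: over the 11 IP libraries, over the 11 input libraries, and over all 22 in 4 groups for IP over input and the interaction. Genes were filtered with filterByExpr, libraries scaled with TMM, and p-values adjusted over all genes tested by Benjamini-Hochberg at 0.05. Standard errors were derived from the fold change and its F statistic, and intervals cover 95%. CPM used TMM factors over all 22 libraries, and log2 CPM a prior count of 2. Exon lengths and positions came from GENCODE vM21, which matched all 55341 symbols, and promoters from RefSeq. The steps were tested on simulated counts with a single setting of spread for all genes and no effect of animal. They were therefore not tested for paired libraries or for genes as widely spread as the members. DESeq2 1.42.0 was run as an alternative, beside RLE scaling, other filters, leaving out animals, and the animal as a block. Python 3.11.15 was used for descriptions and matplotlib 3.10.9 for figures.

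Libraries of the same animal came from the same lysate, per the labels. The deviations of IP and input from their group means correlated within each animal at 0.159 to 0.322 over 14141 genes, and 11 of 11 animals matched themselves best. The members and the gene lists were chosen with earlier results of these data known. All 10 members were named throughout. Of each list, up to 4 called genes with the lowest p-values were named per comparison, or 2 where none was called, and 8 genes per assay by likeness. A gene of the upstream list that the rule names is not reported here. Values of Jun in KO and of Egr3 and Nr4a3 fall partly outside that rule and were added after they were seen. Klf2, named for how it passed the filter, and the values of Cartpt and Nrn1 lie outside it as well. The fits of animals 1, 3, 9 and 12 alone, and with the block without them, and the spread with each animal left out, were chosen after seeing the data. The numbers of counts per library limit the precision of low genes such as Ier2.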

Additional observations from a re-analysis of the deposited data

Results flagged for a closer look

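In groups of 5 or 6 animals, each member's highest or lowest value was set against the others with Dixon's test at the 95% level, which chance passes in about 1 of 20 groups. Of 60 groups tested, 5 passed. KO animal 2 stood below the other KO inputs for Fosb, at 7.40 CPM, and for Nr4a1, at 29.3 CPM, and it was among the 4 lowest animals for all 9 members other than Ier2. KO animal 9 stood above the other KO IP libraries for Ier2, at 0.988 CPM, which came from 27 reads. In IP over input, KO animal 10 stood above the other KO animals for Junb, at 0.91 on the log2 scale, and WT animal 4 below the other WT animals for Egr1, at 0.56.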

How the results depend on the processing

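Over the members' fold changes, 889 alternative values were computed, and 793 kept their direction and side of the threshold. The 63 that turned direction were all values not called, and the main estimates they departed from were each smaller in size than their SE. Some turned values were not close to 0. KO over WT in input went from -0.04 ± 0.23 (SE) to 0.61 for Egr1 in the animals with high cortical markers alone. For Egr2 it went from -0.17 ± 0.25 to 0.39 there. Without those animals the interaction of Ier2 went from 0.56 ± 1.26 to -1.40. Such fits held fewer animals, and the cause of these turns was not tested. The SE of the genotype estimates in IP ran from 0.17 for Egr4 to 0.61 for Fos. 0 members were called between the genotypes under each alternative run.

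The counts of genes called moved more. KO over WT in IP gave 8 genes, 75 with DESeq2, 3 in animals 1, 3, 9 and 12 alone and 4 to 8 on leaving out single animals. In input it gave 3 genes, 5 with no filter, 28 with DESeq2, 7 without animals 1, 3, 9 and 12, 8 in those animals alone and 2 to 7 on leaving out single animals. In animals 1, 3, 9 and 12 alone IP over input called 4005 genes in KO, against 8188 in all, and 3929 in WT, against 8585. The interaction called 0 genes, 5 with DESeq2 and 0 to 2 on leaving out single animals. Of the members, IP over input called 5 in KO, all higher, where 20.9% of all genes were. Without animals 1, 3, 9 and 12 it called 2 higher and 1 lower there, and 3 to 5 in all on leaving out single animals. In WT it called 5, all higher, where 21.8% of all genes were. Without animals 1, 3, 9 and 12 it called 1 higher and 1 lower there, and 3 to 6 in all on leaving out single animals. With the animal as a replicate block it called 7 higher and 1 lower in WT, where 24.1% and 29.7% of all genes were. The lower member was Ier2, and the way it passed the filter is given above. The replicate block was run for IP over input and the interaction, where it changed no call of the interaction, and cannot be run between genotypes, since each animal has a single genotype. Some of these fits held fewer animals, and the cause of the shifts was not tested.

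Values that turned direction are log2 fold changes. In animals 1, 3, 9 and 12 alone, KO over WT in IP was 0.22 for Fosb and 0.22 for Egr4, and in input 0.61 for Egr1 and 0.39 for Egr2. Without these animals it was -0.051 for Egr1 in IP, and in input -0.21 for Fosb, -0.076 for Arc and -0.24 for Nr4a1. On leaving out single animals it ranged in IP from -0.074 to 0.23 for Egr1 and -0.14 to 0.13 for Egr4, and in input from -0.12 to 0.10 for Egr1, -0.32 to 0.0074 for Egr2, -0.26 to 0.13 for Egr4, -0.093 to 0.22 for Nr4a1 and -0.41 to 0.076 for Ier2. IP over input of Npas4 in KO was -0.051 in animals 1, 3, 9 and 12 alone and -0.012 to 0.18 on leaving out single animals. That of Arc in WT was -0.0090 with RLE scaling, -0.0028 with a filter of 1 CPM in 5 libraries, -0.0042 with DESeq2, -0.016 with the replicate block and -0.024 to 0.077 on leaving out single animals.

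The interaction without animals 1, 3, 9 and 12 was 0.038 for Fos, 0.030 for Junb, -0.093 for Egr4, 0.13 for Npas4 and -1.40 for Ier2. In those animals alone it was -0.18 for Egr1 and -0.0050 for Nr4a1. With the replicate block it was -0.012 for Ier2, and with the block and without those animals 0.019 for Junb, -0.014 for Egr4, 0.069 for Npas4 and -0.94 for Ier2. On leaving out single animals it ranged from -0.14 to 0.019 for Fos, -0.039 to 0.12 for Egr4, -0.19 to 0.026 for Npas4 and -1.13 to 1.02 for Ier2.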
